A study of Mus musculus with 2 samples.

Results

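Sox8, Sox9 and Sox10 are the SoxE genes, a family of transcription factors. They were found by symbol among the 31053 gene rows of the deposited matrices, and all 3 had transcripts. Their transcripts were counted in single cells from eye cups of newborn mice (postnatal day 0), with 1 library per genotype and 3 eye cups pooled in each. In Myrf fl/fl animals, called control below, both copies of Myrf were floxed and no cre was present. In Rx>cre Myrf fl/fl animals, called mutant, the same floxed alleles were combined with a cre that acts in the early eye field, which forms the neural retina as well as the RPE (retinal pigment epithelium) but not to neural crest cells such as melanocytes, Schwann-type glia and most mesenchyme around the eye. Cornea, lens and optic nerve had been removed, although clusters led by crystallin genes remained. Myrf encodes a membrane-bound transcription factor. The question followed here was where each SoxE gene was transcribed in the eye and how its level differed between the libraries in each cell class.

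SoxE proteins bind DNA through an HMG box, a domain that fits into the minor groove and bends the DNA, and they often work beside partner factors. Sox10 is known as a regulator of neural crest cells, where it drives melanocyte genes such as Mitf and Dct and myelin genes of glia, and it works with Myrf in oligodendrocytes. Sox9 is known for cartilage formation with Sox5 and Sox6, for retinal progenitors and Müller glia, and for the activation of visual cycle genes in the RPE. Sox8 overlaps with both and is also known from muscle precursor cells.

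The domain that the members share is shown first, because the family is defined by it. On GRCm38, with the GENCODE M21 annotation, Sox8 (ENSMUSG00000024176) lies on the minus strand at chr17:25565892-25570686, Sox9 (ENSMUSG00000000567) on the plus strand at chr11:112782224-112787760 and Sox10 (ENSMUSG00000033006) on the minus strand at chr15:79154908-79165240. Their annotated coding sequences encode 464, 507 and 466 residues. The stretch of 79 residues with most identity in all 3 proteins, which holds the HMG box, is residues 96 to 174 of Sox8, 102 to 180 of Sox9 and 101 to 179 of Sox10. Its coding bases are printed 5′ to 3′ on the coding strand, and capitals mark the 4 codons whose residue is not the same in all members.
Sox8: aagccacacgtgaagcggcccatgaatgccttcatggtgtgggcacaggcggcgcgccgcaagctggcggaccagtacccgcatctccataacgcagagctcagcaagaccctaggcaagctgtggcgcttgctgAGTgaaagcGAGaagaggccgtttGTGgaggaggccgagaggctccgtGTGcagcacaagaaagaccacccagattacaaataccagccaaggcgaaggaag
Sox9: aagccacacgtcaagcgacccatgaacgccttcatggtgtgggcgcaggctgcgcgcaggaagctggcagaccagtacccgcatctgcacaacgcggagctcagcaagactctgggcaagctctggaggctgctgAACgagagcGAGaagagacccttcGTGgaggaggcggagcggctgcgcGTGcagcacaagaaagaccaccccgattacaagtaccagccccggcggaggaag
Sox10: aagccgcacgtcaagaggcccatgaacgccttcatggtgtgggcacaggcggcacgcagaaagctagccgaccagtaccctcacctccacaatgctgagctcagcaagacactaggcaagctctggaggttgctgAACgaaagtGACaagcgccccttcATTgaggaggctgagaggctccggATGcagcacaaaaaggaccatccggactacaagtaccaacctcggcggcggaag
In this stretch 75 of 79 residues were identical in all members, 78 between Sox8 and Sox9, 75 between Sox8 and Sox10 and 76 between Sox9 and Sox10. Over the whole proteins the identity of aligned residues was 55.6%, 54.5% and 60.5% for the same pairs. Reads of these 3′ libraries come from the ends of the transcripts, and the last 500 bases of the annotated transcripts shared no run longer than 16 bases between Sox8 and Sox9 and none of 12 or more between the other pairs. An antisense gene overlaps Sox8 in the annotation but is not a row of the matrices.

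After removal of poor barcodes and called doublets, 12485 control cells (median 4272 unique molecular identifiers, UMIs) and 10813 mutant cells (median 4821) remained. Class names were rebuilt from marker genes, and neither the SoxE genes nor their listed targets took part in the clustering. RPE-like cells (484 control, 200 mutant) counted 11 of 14 RPE markers, among them Ttr, Rdh5 and Stra6, and had no UMI of Pax3, which marks melanocytes. Rpe65 was almost absent at this age, with 12 and 0 UMIs. Their median depth differed between the libraries, with 2450.5 control and 10618.5 mutant UMIs. Melanocyte-like cells (30 and 18) carried Pax3, crest glia-like cells (20 and 20) were led by Foxd3 and Gfra3, and astrocyte-like cells (31 and 33) by Pax2 and Gfap. Myrf, the targeted gene, had 742 UMIs in control RPE-like cells, 233 CPM (UMIs of the gene scaled to the total UMIs of the class), against 64 UMIs or 26.9 CPM in the mutant. These 3′ reads also count transcripts that lack an internal exon. Levels below are CPM with their exact 95% Poisson interval, ratios carry an exact interval of the plain ratio, and all intervals cover counting error only. With 1 library per genotype no difference has a replicate check and none was tested.

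The 3 members were highest in different cell classes. Sox10 was at its highest in crest glia-like cells, where it had 91 UMIs in the control (969 CPM, 780 to 1190) and 106 in the mutant (792 CPM, 648 to 958). Melanocyte-like cells followed with 212 control UMIs (377 CPM, 328 to 431) and 107 mutant UMIs (324 CPM, 266 to 391.8). RPE-like cells of the control were next with 232 UMIs (72.7 CPM, 63.7 to 82.7). None of these neighbours overlapped in its interval in the control. Together the RPE-like, melanocyte-like and crest glia-like cells held 38.2%, 34.9% and 14.97% of all Sox10 UMIs of the control, and 3.8%, 44.8% and 44.4% of those of the mutant.

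Outside these classes Sox10 was near its background. In photoreceptor-like cells, which should lack the gene and serve here as a measure of free RNA, it had 2 UMIs in 1201 control cells (0.48 CPM, 0.06 to 1.74) and 0 in 1329 mutant cells. Retinal progenitor-like cells had 13 UMIs in 3618 control cells and 8 in 4228 mutant cells, 0.71 and 0.36 CPM. Of the 13 control UMIs, 8 came from 1 cell of 19524 UMIs, and 0.27 CPM remained without it. Astrocyte-like cells had 0 Sox10 UMIs in both libraries, at median depths of 12462 and 17158 UMIs, with 3-count limits of 7.21 and 4.83 CPM. Mesenchyme-like cells had 1 UMI in 654 control cells and 2 in 330 mutant cells. Low levels above the photoreceptor-like one were also seen in control white blood-like cells, with 9 UMIs in 261 cells (5.26 CPM, 2.41 to 9.99) against 0 in 68 mutant cells. A shallow cluster led by Dkk2 and Col1a1 (620 control and 29 mutant cells), which took no class name, held 25 control UMIs (17.1 CPM, 11.1 to 25.3) and 2 mutant UMIs (24.6 CPM, 2.98 to 88.9).

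Sox9 was found in more classes. Its highest level was in astrocyte-like cells, with 160 UMIs in the control (384 CPM, 327 to 449) and 291 in the mutant (468 CPM, 416 to 525). Retinal progenitor-like cells held 5893 control UMIs (323 CPM, 315 to 331) and 7842 mutant UMIs (354 CPM, 346 to 362), which overlapped with the astrocyte-like interval in the control but not in the mutant. RPE-like cells were next in both libraries at 193 and 204 CPM, ahead of neurogenic-like cells at 140 and 162 CPM. Melanocyte-like cells stood at 78.1 and 72.7 CPM. Photoreceptor-like cells gave 43.4 and 53.7 CPM, endothelial-like cells 38.7 and 30.8 CPM and white blood-like cells 39.8 and 36.1 CPM. Lower still were mesenchyme-like cells (29.2 and 21.4 CPM) and amacrine-like cells at 22.3 CPM (17.3 to 28.3) and 16.6 CPM (12.9 to 20.9), so the photoreceptor-like level is not a floor for Sox9. Crest glia-like cells had only 1 Sox9 UMI in each library, beside 91 and 106 of Sox10.

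Sox8 was mainly a transcript of the neural retina. Retinal progenitor-like cells held 2664 of 4102 control UMIs (64.9%) and 2985 of 4263 mutant UMIs (70.0%), at 146 CPM (141 to 152) and 135 CPM (130 to 140). Next in the control were astrocyte-like cells at 74.5 CPM, neurogenic-like cells at 67.9 CPM and muscle-like cells at 55.6 CPM, whose intervals overlapped. The muscle-like level came from the cluster led by Myog, Myf5 and Myod1, genes of muscle precursors, with 42 control UMIs (56.0 CPM) and 44 mutant UMIs (80.2 CPM). In photoreceptor-like cells Sox8 had 7.72 and 6.94 CPM. The levels in melanocyte-like (5.33 and 3.03 CPM) and mesenchyme-like cells (4.86 and 4.39 CPM) did not exceed this.

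**Figure D1:**
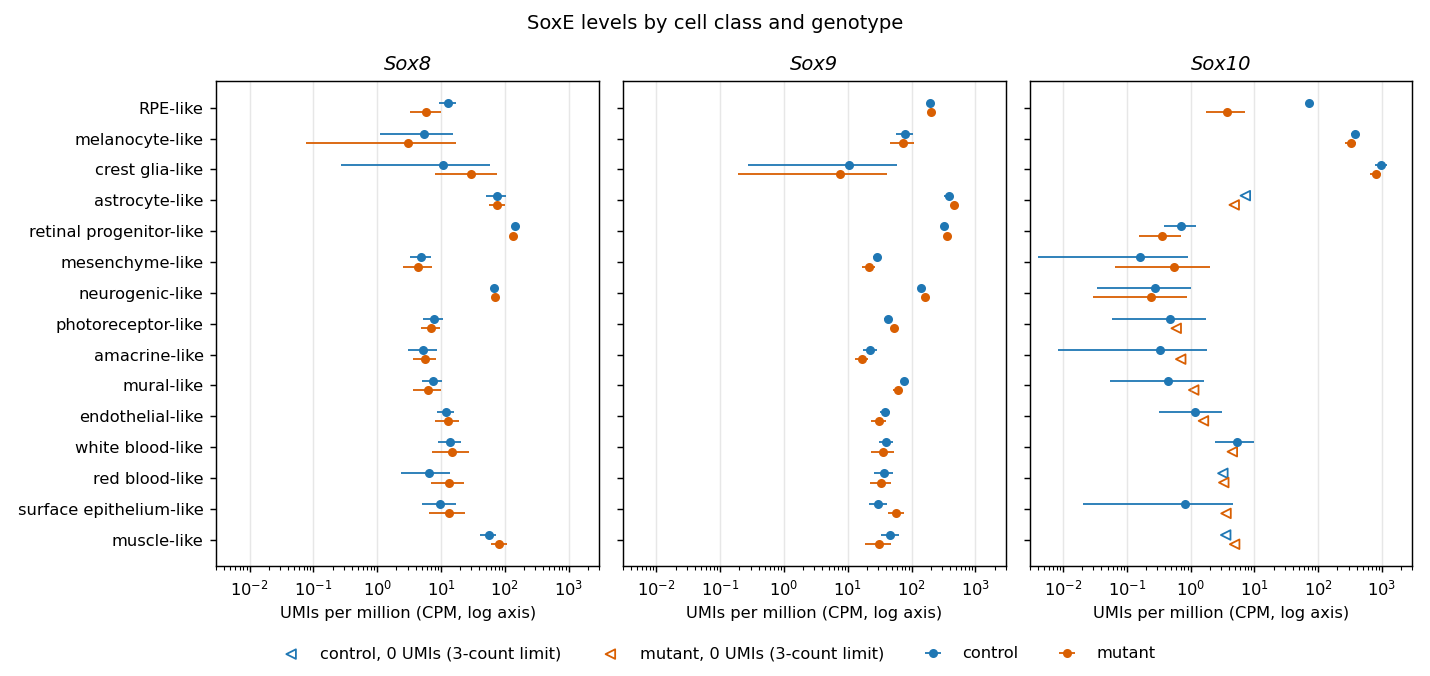
Level of each SoxE gene in 15 named cell classes, in CPM on a log axis, for the control (blue) and the mutant library (orange). Points are the summed level of 1 library and bars the exact 95% Poisson interval, and open triangles mark the 3-count limit where no UMI was found. Sox10 stands out in crest glia-like and melanocyte-like cells of both libraries and in RPE-like cells of the control, while Sox9 and Sox8 lead in astrocyte-like and retinal progenitor-like cells.

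The largest difference between the libraries among the members was that of Sox10 in RPE-like cells. It had 232 UMIs in 130 of 484 control cells and 9 UMIs in 6 of 200 mutant cells, that is 72.7 CPM against 3.78 CPM (1.73 to 7.18). The mutant level was 19.2-fold lower, with an interval from 9.95 to 42.6, or -3.95 on the log2 scale with 1 CPM added to each side. In RPE-like cells 5.09% of 11063 genes with at least 20 UMIs were lower by at least 2-fold on that scale and 2.57% were higher. Sox10 was past this limit, Sox8 lay on it at -1.01 and Sox9 was not past it. Sox8 was no longer past it at clustering resolutions of 0.5 and 2 (-0.57, -1.47 to 0.18, at both) or with a gate on pigment genes in place of clusters (-0.54, -1.39 to 0.17). It also fell short with a mitochondrial limit of 5% (-0.67), at least 1000 genes per cell (-0.85) or no doublet removal (-0.93). The same held with 5 CPM added (-0.71) and with mitochondrial, ribosomal and globin UMIs left out of the total (-0.98). It stayed past the limit in thinned cells, in equally weighted cells, at most 2000 UMIs and in cells of 4000 to 16000 UMIs.

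The mutant cells were the deeper ones, so the shares of cells with a UMI were also compared at equal depth. After each cell was thinned to 1000 UMIs, which left out 101 control and 23 mutant cells, 29 of 383 control cells (7.57%, 5.13 to 10.7) and 1 of 177 mutant cells (0.565%, 0.0143 to 3.11) kept a Sox10 UMI. Before thinning the shares were 26.9% and 3.0%, and thinned photoreceptor-like cells gave 0.0853% in the control. Cells of up to 2000, of 2000 to 4000 and of 4000 to 8000 UMIs held 18, 16 and 9 control UMIs of Sox10 and 0 mutant ones, but at this depth the intervals of the levels overlapped. Cells of 8000 to 16000 UMIs had 63 Sox10 UMIs in 73 control cells and 2 in 52 mutant cells (74.2 and 3.13 CPM), and cells over 16000 UMIs had 126 in 77 and 7 in 63 (76.95 and 4.69 CPM). In these deep bands the intervals lay apart. The 6 mutant cells with a Sox10 UMI were deep, with a median of 22556.5 UMIs, and none held more than 2 Sox10 UMIs.

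Melanocyte and mesenchyme markers were read in the same cells. Pax3 had 0 UMIs in both libraries. It was at 0 both in the 130 control RPE-like cells with a Sox10 UMI and in the 354 without one. Mesenchyme markers differed with genotype. All 12 listed genes were detected in control and 11 in mutant RPE-like cells, and they summed to 2500 and 335 CPM, or 1863 and 321 CPM in cells over 8000 UMIs. Mesenchyme-like cells themselves had 0.16 and 0.55 CPM of Sox10. The same markers summed to 2328 and 90.9 CPM in melanocyte-like cells, 1403 and 624 CPM in astrocyte-like cells and 1441 and 245 CPM in retinal progenitor-like cells, and to 3663 and 4491 CPM in crest glia-like cells. Their part in the SoxE values of these classes was not tested. In RPE-like cells over 8000 UMIs Sox10 was at 76.0 CPM in 150 control cells and 4.22 CPM in 115 mutant cells.

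In the other Sox10 classes the ratio of the summed levels was nearer to 1. The mutant level was 0.861 times that of the control in melanocyte-like cells (0.676 to 1.09) and 0.817 times in crest glia-like cells (0.612 to 1.09), and both intervals include 1. Most alternatives left both ratios near these values, and with cells weighted equally the log2 ratio was -0.32 in melanocyte-like and -0.22 in crest glia-like cells. Some gave lower values. With cells thinned to 1000 UMIs crest glia-like cells held 25 control and 10 mutant UMIs, a log2 ratio of -1.47 (-2.70 to -0.37). Melanocyte-like cells of 4000 to 16000 UMIs (10 control, 7 mutant) were at -0.84 (-1.48 to -0.24). Crest glia-like cells of that depth were at -0.18 (-0.68 to 0.32), and melanocyte-like cells with Y-linked UMIs at 0.13 (-0.42 to 0.66). All 30 control and 18 mutant melanocyte-like cells held a Sox10 UMI, as did 18 and 19 of the 20 crest glia-like cells of each library. Whether the ratio in RPE-like cells differs from these could not be tested with 1 library each. Its interval ran from 0.0235 to 0.1005.

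**Figure D2:**
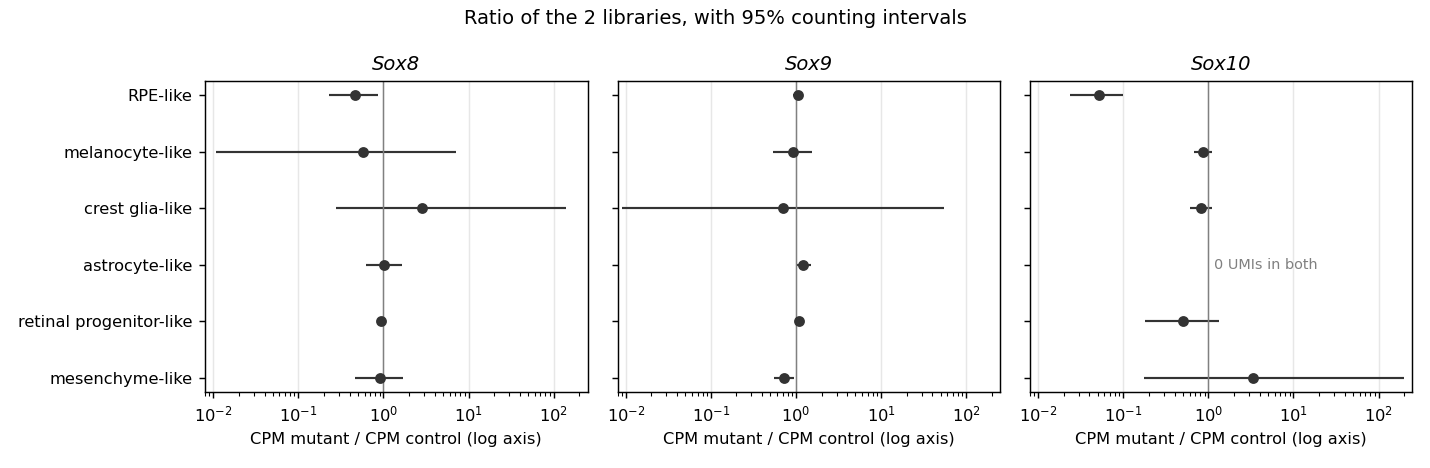
Ratio of the mutant to the control level of each SoxE gene in 6 cell classes, on a log axis, with the exact 95% interval of the ratio and a grey line at equal levels. The point for Sox10 in RPE-like cells lies at 0.052 with its interval wholly below 1, while melanocyte-like and crest glia-like cells lie at 0.861 and 0.817.

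Sox9 in RPE-like cells was at nearly the same level in both libraries. It had 617 UMIs in the control (193 CPM, 178 to 209) and 485 in the mutant (204 CPM, 186 to 223), a ratio of 1.05 with an interval from 0.934 to 1.19. Thinned shares were 14.6% (11.2 to 18.6) and 18.1% (12.7 to 24.6), and the unthinned 40.9% and 58.5% went with the greater depth of the mutant cells. Thinned photoreceptor-like cells gave 3.58% and 3.596%. In cells over 8000 UMIs the levels were 200 and 207 CPM. By depth band the control lay between 153 and 216 CPM, and the mutant between 152 and 231 CPM apart from the band of 2000 to 4000 UMIs, where 18 mutant cells held 2 UMIs (37.8 CPM, 4.58 to 137).

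Sox8 was low in RPE-like cells, and its difference varied with the depth of the cells. The control had 41 UMIs (12.9 CPM, 9.22 to 17.4) and the mutant 14 (5.89 CPM, 3.22 to 9.87), a 2.18-fold lower level (1.17 to 4.34). Of the 41 control UMIs, 22 came from cells of at most 4000 UMIs, where the level was 35.0 CPM up to 2000 UMIs and 63.6 CPM from 2000 to 4000 UMIs, while 59 mutant cells of that depth held 0. The intervals overlapped in both bands, with mutant limits of 90.7 and 69.8 CPM. In cells over 8000 UMIs the control had 6.44 CPM of Sox8 and the mutant 6.09 CPM, near the 7.72 and 6.94 CPM of photoreceptor-like cells. The bands within these deep cells went opposite ways, with 9.43 and 3.13 CPM from 8000 to 16000 UMIs and 4.89 and 7.36 CPM over 16000 UMIs. Of the 14 mutant UMIs 5 came from 1 cell of 24031 UMIs, and the mutant level of the class was 3.82 CPM without it. Cells of 4000 to 16000 UMIs were at 9.96 and 3.79 CPM (log2 ratio -1.19, -3.88 to 0.53). With all cells thinned to 1000 UMIs, however, 15 Sox8 UMIs were left in the control and 0 in the mutant.

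**Figure D3:**
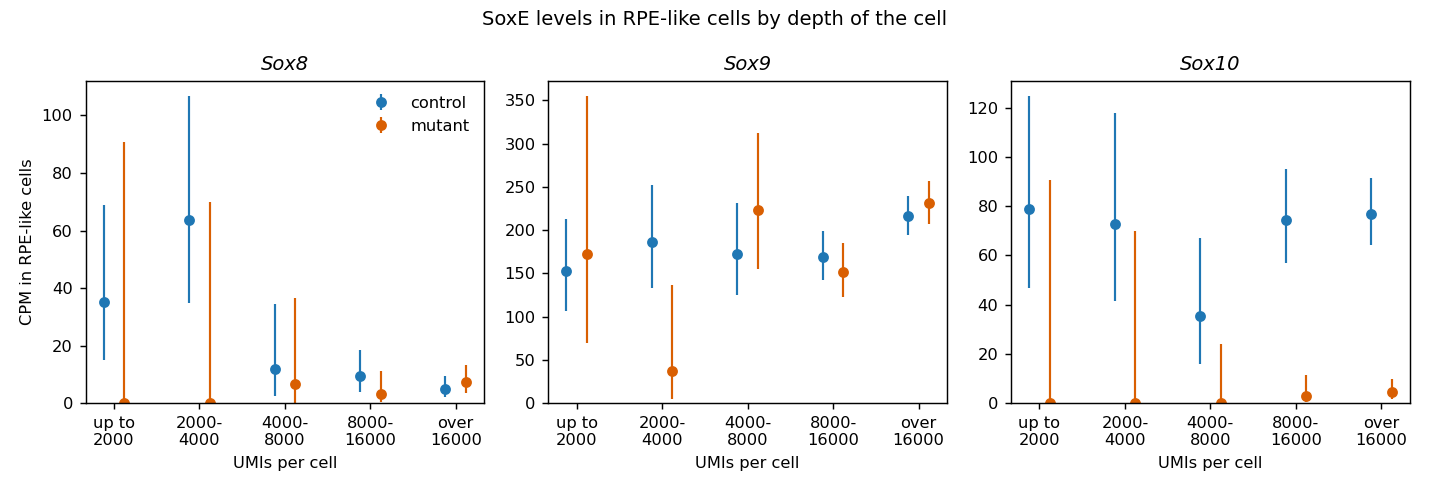
Level of each SoxE gene in RPE-like cells (CPM) in 5 bands of UMIs per cell, for the control (blue) and the mutant (orange), with exact 95% Poisson intervals; points at 0 had no UMI. Sox10 intervals lie apart over 8000 UMIs, Sox9 points lie close except from 2000 to 4000 UMIs, and Sox8 points lie apart below 4000 UMIs, where the mutant had no UMI.

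In the control, the members and Myrf met in the same RPE-like cells. Of the 130 cells with a Sox10 UMI, 98 also had a Sox9 UMI and 100 a Myrf UMI. Their median depth was 13615 UMIs. Among all control RPE-like cells, Sox9 was seen in 71.2% of those with 8000 to 16000 UMIs and 88.3% of those over 16000. The part of depth in these overlaps was not tested. Of the 196 cells with a Myrf UMI, 142 had Sox9 and 17 had Sox8. Control cells with a Myrf UMI had 80.1 CPM of Sox10 (69.3 to 92.1) and 218 CPM of Sox9 (200.5 to 238), and cells without one had 47.3 CPM (32.8 to 66.1) and 107 CPM (84.6 to 134). These groups differed in depth, with medians of 12398.5 and 1472.5 UMIs, and the part of depth in this was not tested. In the mutant, Sox9 was at 234 CPM in the 44 cells with a Myrf UMI and 187 CPM in the 156 cells without. Sox10 was at 4.71 and 3.27 CPM there, so the mutant cells that still gave Myrf reads had no more than 4 Sox10 UMIs among them. All 6 mutant cells with Sox10 had Sox9 too, at a median depth of 22556.5 UMIs. Sox9 was seen in 92.1% of all mutant RPE-like cells over 16000 UMIs. Without thinning, at least 1 SoxE gene was seen in 49.2% of control and 59.0% of mutant RPE-like cells, the mutant cells being the deeper ones. Photoreceptor-like cells gave 12.7% and 13.8% in the same way. In melanocyte-like cells, every one of which held a Sox10 UMI, Sox9 was found in 12 of 30 control and 7 of 18 mutant cells.

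Listed targets of SOX10 were compared in the classes where the gene was present. Of the 8 pigment genes all had at least 20 UMIs in RPE-like cells, none was lower or higher by 2-fold, and their median log2 ratio was -0.36 against -0.01 for all genes. With 5.09% of all genes lower and 2.57% higher, a count of 0 among 8 genes says little about the list. Ednrb, an endothelin receptor, was at 128 and 69.4 CPM (log2 ratio -0.87, -1.15 to -0.61), Tyrp1 at 1397 and 952 CPM and Pmel, a melanosome scaffold, at 13930 and 10596 CPM. Kit was at 49.2 and 45.8 CPM and Mitf, the master regulator of pigment cells, at 168 and 156 CPM, both with intervals that include 0, and Tyr was higher in the mutant at 955 and 1173 CPM (0.30, 0.22 to 0.37). In melanocyte-like cells the median of the same 8 genes was 0.03, and none was past 2-fold, where 3.7% of all genes were lower and 2.69% higher.

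Of 19 crest and glia targets, 8 had enough UMIs in RPE-like cells, with 4 lower by 2-fold, none higher and a median of -1.05, beside the same 5.09% and 2.57% of all genes. Gjb1, a connexin of myelinating glia, had 162 UMIs in the control (50.8 CPM) and 0 in the mutant, at least 40.3-fold lower by the 3-count limit of the library. Mag, a myelin protein, had 22 control UMIs against 1 in the mutant (log2 ratio -2.47, -9.40 to -1.41). Pmp22, Cnp and Mia were close to equal at 0.11, 0.13 and 0.22. In crest glia-like cells 13 of the 19 had enough UMIs and 1 was lower by 2-fold, Gjc3 at 362 and 179 CPM, where 4.26% of all genes were lower and 5.99% higher. Pmp22 was at 0.44 there (0.07 to 0.82).

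A SOX10 regulon, a set of genes inferred from co-expression and motifs, was listed by the study from RPE cells of several ages, these libraries among them. Sox10 itself was left out of the list here. Because these libraries took part in the choice, its direction is not independent evidence. All 43 listed genes had enough UMIs in RPE-like cells, 33 were lower by 2-fold, none was higher and the median was -1.55, beside 5.09% of all genes lower and 2.57% higher. The lowest were Rgr, a photoisomerase of the RPE, with 3714 and 15 UMIs (log2 ratio -7.32, -8.37 to -6.80), Gjb1, given above, and Upk1b, a uroplakin, with 453 and 6 UMIs (-5.34). The nearest to equal were Sgk3 at -0.44, Cpxm2 at -0.35 and Dusp4 at -0.15. In cells over 8000 UMIs 34 of the 43 were lower by 2-fold, beside 5.0% of all genes. In melanocyte-like cells, where the interval of the Sox10 ratio includes 1, 11 of these genes had enough UMIs, 2 were lower by 2-fold and the median was -0.16, beside 3.7% of all genes lower, 2.69% higher and a median of -0.01. Those 2 were Sgk3 with 29 and 5 UMIs (-1.70, -3.49 to -0.38) and Abhd2 with 23 and 5 (-1.37), and Tex2 was the highest at 0.96.

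Listed targets of SOX9 were read in the same cells. Of 14 cartilage genes, 8 had enough UMIs in RPE-like cells, with 5 lower by 2-fold, none higher and a median of -1.08, beside 5.09% of all genes lower and 2.57% higher. The lowest were the chains of type IX collagen, with Col9a2 at 58.3 and 5.89 CPM (log2 ratio -3.11, -4.21 to -2.53), Col9a1 at 146 and 24.8 CPM (-2.51) and Col9a3 at 2264 and 878 CPM (-1.37). Col11a1 was on the higher side at 0.42 (0.17 to 0.67), Fgfr3 was at -0.10 and Sox6 at -0.64. Col2a1, the main cartilage collagen, had 70 and 23 UMIs (-1.10) and Sox5, a partner of Sox9, 62 and 21 (-1.06). Acan, the main proteoglycan of cartilage, had 10 and 0 UMIs, and Matn1, Hapln1 and Comp had 0 in both libraries. The mesenchyme markers given above were lower in the same mutant cells. Control mesenchyme-like cells had 20.6 CPM of Col9a2, 17.8 of Col9a1, 11.8 of Col9a3, 22.7 of Col2a1 and 2.92 of Sox5. The part of mesenchyme transcripts in these differences was not tested. Of 4 visual cycle and RPE genes, Rgr (above) and Rlbp1, a retinoid carrier, had enough UMIs. Rlbp1 was at 821 and 336 CPM (-1.29, -1.41 to -1.18), and Rpe65 had 12 and 0 UMIs. Col9a3, Rgr and Rlbp1 also belong to the regulon list.

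**Figure D4:**
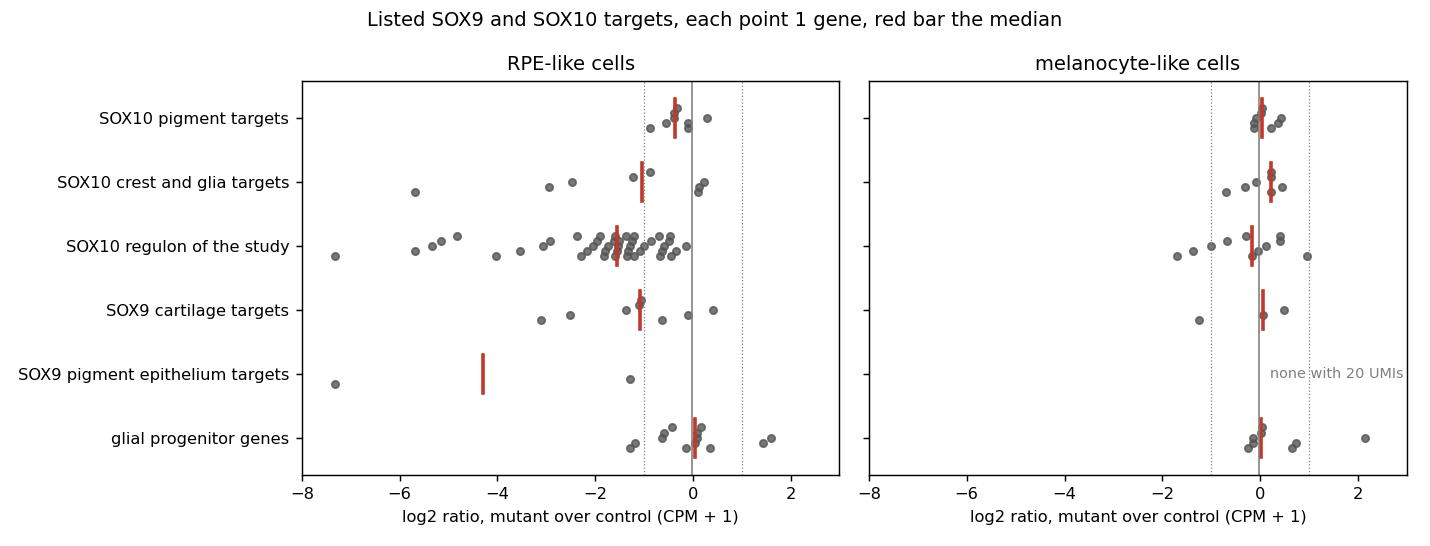
Log2 ratio of mutant to control (1 CPM added) of the listed SOX9 and SOX10 targets with at least 20 UMIs, in RPE-like cells (left) and melanocyte-like cells (right). Each point is 1 gene, the red bar is the median of a list, dotted lines mark 2-fold and the grey line is the median of all genes. The regulon genes centre at -1.55 in RPE-like and -0.16 in melanocyte-like cells, and the pigment genes at -0.36 and 0.03.

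Other Sox genes in RPE-like cells were given by the same limit of 20 UMIs. Sox5 and Sox6, the SoxD partners of Sox9, had 62 and 102 control UMIs against 21 and 48 in the mutant, log2 ratios of -1.06 (-1.93 to -0.40) and -0.64 (-1.19 to -0.16). Sox4 was at 187 and 178 CPM, and Sox11 and Sox12 were at -0.25 and -0.52. Sox2 and Sox3, which keep neural progenitors, had 35 and 28 control UMIs against 16 and 19, with intervals that include 0. Of the 10 Sox genes with enough UMIs, SoxE members included, 3 were lower by 2-fold in all cells, where 5.09% of all genes were, and 2 in cells over 8000 UMIs, where 5.0% were. None was higher, and Sox8, counted among the 3, lay on the limit as given above. Among the partners Lef1 was at 0.15 with 13 and 11 UMIs, and Nfia at 0.09.

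In retinal progenitor-like cells Sox8 and Sox9 were more than 2-fold apart in neither direction, in a class where 0.786% of 13739 genes were lower and 0.124% higher. Sox8 was 0.923 times the control level (0.876 to 0.973) and Sox9 was 1.10 times (1.06 to 1.13). Thinned shares were 14.6% and 13.0% for Sox8 and 26.4% and 27.3% for Sox9. Both genes were seen together in 1131 control cells out of 3618, and in 1320 out of 4228 in the mutant. Among the 4 progenitor clusters, Sox9 was lowest in the one led by mitosis genes such as Ube2c and Plk1 (252 and 286 CPM) and highest in the control in the one led by replication histones (373 and 380 CPM). Sox8 ran from 166 and 166 CPM in the cluster led by Ung and Hes5 to 114 and 104 CPM in the cluster led by Ung and Cdc6. In neurogenic-like cells the genes parted. The cluster led by Gadd45g, Dll1 and Olig2 had 148 and 168 CPM of Sox8 beside 148 and 153 CPM of Sox9, and the cluster led by Neurod4 and Dll3 had 17.5 and 19.3 CPM of Sox8 beside 189 and 248 CPM of Sox9.

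The small Sox9 difference in progenitors had opposite directions when cells were divided by sex-linked transcripts, and the comparison within 1 library was added after seeing the data. The labels do not give the sex of the animals, and cells with Xist and cells with Y-linked UMIs were found in each library, in unequal parts. Of the control progenitor-like cells 58.5% had UMIs of Y-linked genes (Ddx3y, Uty, Eif2s3y or Kdm5d) and no Xist, and 1.99% had Xist alone. In the mutant the shares were 13.9% and 73.7%. Among cells with Xist, Sox9 was at 306 CPM in 72 control cells and 388 CPM in 3115 mutant cells. Among cells with Y-linked UMIs it was at 310 CPM in 2116 control cells and 253 CPM in 586 mutant cells, the opposite direction. Within the mutant library alone the cells with Xist had 1.53 times the Sox9 level of cells with Y-linked UMIs (1.42 to 1.65), which is more than the difference between genotypes. The factor lay above 1 in each of the 4 progenitor clusters of the mutant, from 1.19 (1.03 to 1.40) to 1.87 (1.62 to 2.16). In control progenitor-like cells it was 0.987 (0.807 to 1.19), which rests on the 72 cells with Xist. These made up 1.99% of the class, against 16.7% of control RPE-like cells. Whether some of them held free Xist RNA was not tested.

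The same division in RPE-like cells gave 242 CPM of Sox9 in control cells with Xist and 177 CPM in those with Y-linked UMIs, and 217 and 155 CPM in the mutant, factors of 1.36 (1.13 to 1.64) and 1.40 (1.09 to 1.83). Cells with Xist were 16.7% of the control and 39.0% of the mutant RPE-like cells. Within either group the mutant level of Sox9 was on the lower side, with log2 ratios of -0.15 (-0.41 to 0.10) and -0.20 (-0.59 to 0.18), against 0.08 over all RPE-like cells. Sox10 in control RPE-like cells did not differ this way, at 78.8 and 72.8 CPM. In the mutant it had 2 UMIs in 78 cells with Xist (1.37 CPM) and 5 in 36 cells with Y-linked UMIs (10.2 CPM), so that the lower level of the mutant was found in both. Sex, animal and litter cannot be told apart in these pools.

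**Figure D5:**
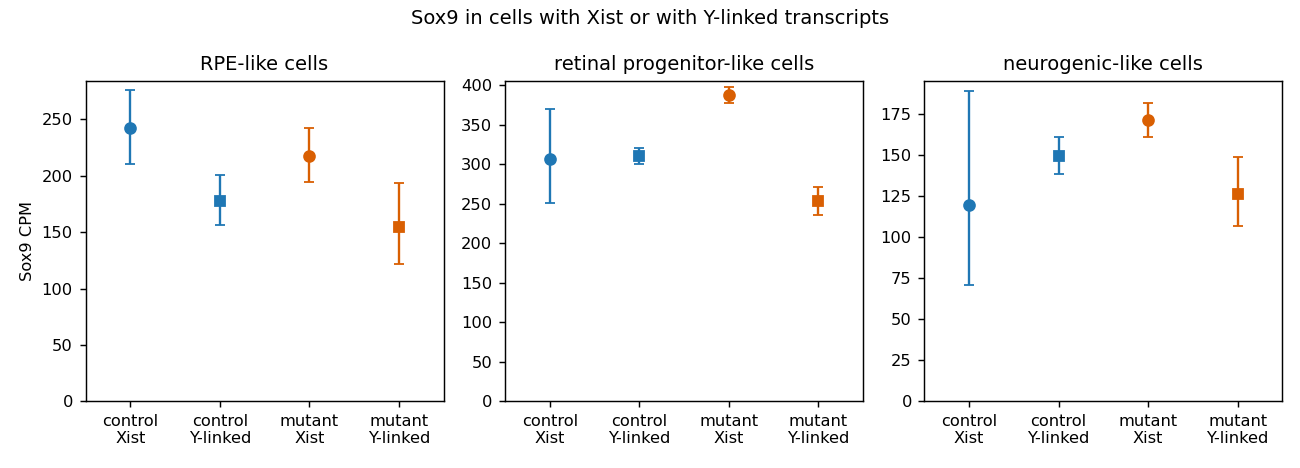
Level of Sox9 (CPM, exact 95% Poisson interval) in RPE-like, retinal progenitor-like and neurogenic-like cells that held Xist UMIs (circles) or Y-linked UMIs (squares) in the control (blue) and mutant library (orange). In mutant retinal progenitor-like cells the levels are 388 and 253 CPM, while the control levels of 306 and 310 CPM overlap.

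Of 14 glial progenitor genes, which accompany Sox9 in retinal progenitors and Müller glia, 13 had enough UMIs in progenitor-like cells and none was past 2-fold. With 0.786% of all genes lower and 0.124% higher in this class, that count says little about the list. Nfix, Rlbp1 and Crym were lowest at -0.40, -0.34 and -0.32, and Glul, Hes1 and Id1 highest at 0.13, 0.09 and 0.08. In RPE-like cells 2 of 13 were lower, Rlbp1 and the glutamate transporter Slc1a3 (46.1 and 19.8 CPM, -1.18), and 2 were higher, beside 5.09% and 2.57% of all genes. Those were Id1 (178 and 483 CPM, 1.43) and Id3 (760 and 2300 CPM, 1.60), inhibitors of bHLH factors that respond to BMP signals.

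In mesenchyme and vessel classes Sox9 was low and uneven. Mesenchyme-like cells had 180 control UMIs in 94 of 654 cells and 78 mutant UMIs in 45 of 330 cells, a ratio of 0.733 (0.555 to 0.962), with up to 19 UMIs in 1 cell. The thinned shares were 3.15% and 0.926%, beside 3.58% and 3.596% in photoreceptor-like cells. An unnamed cluster led by Acan, Tnc and Chad, which shares mesenchyme and cartilage markers, had 47.3 and 30.9 CPM of Sox9, and one led by Tnmd and Scx, genes of tendon, had 19.2 and 21.2 CPM. Of the mural-like clusters, the one led by Col10a1, Alpl and Tcf21, which are not defining mural genes, had 86.0 and 71.1 CPM, and the one led by Rgs5 and Higd1b had 26.0 and 29.0 CPM.

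The genes whose levels ran most like each member were sought over 30 profiles, 15 classes in each library, among 14033 genes, as a description only, since profiles of a library share its depth and free RNA. Nearest to Sox10 were Gm13479 (Pearson r of log2(CPM + 1) 0.949), Mlph, a melanosome transport gene (0.915), Klhl30 (0.907), Gm2115 (0.906) and Insc (0.893). Nearest to Sox9 were Nr2e1, a nuclear receptor of retinal progenitors (0.852), Hist1h4i (0.801), Lhx2, an eye field factor (0.799), Gm9945 (0.794) and Tedc1 (0.790). Nearest to Sox8 were Cenpf (0.864), Sox2 (0.830), Aspm (0.827), Knstrn (0.817) and Ccnb1 (0.816), most of them genes of mitosis. Between members r was 0.532 for Sox8 and Sox9, -0.218 for Sox8 and Sox10 and -0.226 for Sox9 and Sox10.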

How the data were processed

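The authors counted UMIs from 10x 3′ libraries with Cell Ranger against mm10, version 7.1.0 per the labels and 3.1.0 per the file headers, and deposited raw counts per gene and barcode. The annotation is not given in the sources used here. The matrices held 14305 control barcodes with 79017429 UMIs and 12222 mutant barcodes with 76272867 UMIs, and 59 barcodes were in both. Barcodes with at least 200 genes and at most 15% mitochondrial UMIs were kept. Scrublet (scanpy 1.11.5) scores at the expected rate removed 1646 control barcodes (11.6%) and 1214 mutant barcodes (10.1%), since its own threshold marked 0% of the control and 5.46% of the mutant. The stated doublet limit of 2000 UMIs was an alternative only, because 80.2% and 92.1% of barcodes exceed it. Seurat 5.3.0 (R 4.3.3) clustered both libraries after anchor integration on 1918 genes, with 30 components and resolution 1, leaving out 133 listed genes. Of 37 clusters, 9 stayed unnamed. A class took its name where at least 3 and at least 50% of its listed markers counted and no other class led the top genes, a marker counting at 10% of cells and 2 times the mean elsewhere. UMIs were summed per library and class. Log2 ratios divide the mutant by the control level after adding 1 CPM to both, and intervals are exact Poisson or Clopper-Pearson. Only the ratios and their intervals were tested on simulated data, with Poisson counts that hold no variation between libraries. List members needed 20 UMIs, and the 3 lowest and 3 highest of a list were named, with all members and other Sox genes past that limit in RPE-like cells, and the 5 genes most like each member. Members and lists were chosen with earlier results of these data known. Some listed genes that these rules would name are not reported here.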

Additional observations from a re-analysis of the deposited data

Results flagged for a closer look

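Sox9 was the one member with counting intervals wholly above 0 in some classes and wholly below 0 in others. Its log2 ratio of mutant over control, with a counting interval on the positive side, was 0.28 in astrocyte-like cells and 0.91 in surface epithelium-like cells. Among retinal cells it was 0.13 in progenitor-like, 0.30 in photoreceptor-like and 0.21 in neurogenic-like cells. It was -0.43 in mesenchyme-like and -0.31 in mural-like cells, with the interval on the negative side. The astrocyte-like interval began at 0.00064. It included 0 at a mitochondrial limit of 5% and without doublet removal, as did the mesenchyme-like interval, and also with the total without mitochondrial, ribosomal and globin UMIs, in cells of 4000 to 16000 UMIs and in thinned cells. The difference between classes was not tested, since each genotype had 1 library. Sox9 levels in photoreceptor-like cells, 43.4 and 53.7 CPM, moved the same way as those of the retinal classes, and the share of cells with Xist also differed between the libraries (1.99% and 73.7% of progenitor-like cells). The part of either in these signs was not tested.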

How the results depend on the processing

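Log2 ratios of mutant over control were recomputed under each alternative. Of these values 181 stayed within the counting interval of the reported one. Classes with few UMIs had wide intervals, such as -6.53 to 2.82 for Sox8 in melanocyte-like cells, and some alternatives kept the same cells. The count is thus no measure of stability. The other values are given here. No paired analysis was possible because each genotype had 1 library, and no replicate could be left out. With at most 2000 UMIs per cell the ratio was -5.17 for Sox8 and -6.32 for Sox10 in RPE-like cells, 0.91 for Sox9 in retinal progenitor-like cells, and -4.28 for Sox8 and -6.68 for Sox9 in mesenchyme-like cells. With cells thinned to 1000 UMIs it was -5.33 for Sox8 and 0.26 for Sox9 in RPE-like cells, -0.76 and -1.47 for Sox10 in melanocyte-like and crest glia-like cells, 1.48 for Sox8 and -0.31 for Sox9 in astrocyte-like cells, the latter with its direction turned, and -1.80 for Sox9 in mesenchyme-like cells. With cells weighted equally Sox8 in RPE-like cells was at -2.30. In cells of 4000 to 16000 UMIs Sox9 and Sox10 in melanocyte-like cells were at -1.83 and -0.84. With 5 CPM added Sox10 in RPE-like cells was at -3.15. In cells with Xist, Sox8 and Sox9 were at -0.16 and -0.15 in RPE-like cells, Sox9 at 2.35 in astrocyte-like cells (1 control cell with 2 UMIs against 27 mutant cells), and Sox8 and Sox9 at 0.10 and 0.34 in retinal progenitor-like cells, where the direction of Sox8 turned. In cells with Y-linked UMIs, Sox9 and Sox10 were at -0.20 and -2.72 in RPE-like cells, Sox10 at 0.13 in melanocyte-like and -0.74 in crest glia-like cells, and Sox8 and Sox9 at -0.24 and -0.29 in retinal progenitor-like cells. Sox9 in astrocyte-like cells was at -0.68 there (25 control and 3 mutant cells), and Sox9 in both of these last classes turned its direction. In RPE-like cells over 8000 UMIs, an alternative chosen after seeing the data, Sox8 was at -0.068. The cause was not tested. Ratios where the mutant had no UMI depend on the added 1 CPM and are no bounds. The melanocyte-like, crest glia-like and astrocyte-like classes held 18 to 33 cells in a library, which limits their precision.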
